A study of Homo sapiens with 12 samples.

Results

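The enzymes described here make or clear androgens: AKR1C1, AKR1C2, AKR1C3, SRD5A1, SRD5A3, HSD3B1 and HSD17B4, and the glucuronosyltransferases UGT2B11, UGT2B15 and UGT2B17. They were chosen by gene symbol, with earlier results of these data known. All 10 were found, each on a single row, among the 60660 genes of every table. The libraries came from 2 prostate cancer (PCa) cell lines, LNCaP, grown from a lymph node metastasis and responsive to androgen, and 22Rv1, grown from a xenograft that relapsed after castration of its host. The study chose both as androgen-sensitive lines, and reported that 22Rv1 was also strongly sensitive to loss of androgen. Each line was transfected with piR-4447944 mimic, a synthetic 2′-O-methyl modified copy of the PIWI-interacting RNA piR-hsa-4447944 (the piRNA mimic, labelled as its overexpression), or with NC-mimic, the negative control (labelled piR-Ctrl). All cells of the 4 groups, controls included, were deprived of androgens in 10% CS-FBS, serum stripped with charcoal, so no library shows these genes in the presence of androgen. There were 3 libraries in each group and 12 in all. A cell line stands for a single tumor, and the labels do not say whether libraries of a group came from separate cultures, so p-values measure the spread between these libraries, which may be technical.

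Active androgens can be made inside PCa cells from adrenal precursors. HSD3B1 turns dehydroepiandrosterone into androstenedione, AKR1C3 reduces androstenedione to testosterone, and SRD5A1 is a steroid 5α-reductase that also accepts androstenedione. AKR1C2 reduces dihydrotestosterone to a weak androgen, and its near copy AKR1C1 reduces progesterone and, in part, dihydrotestosterone. UGT2B15 and UGT2B17 join glucuronic acid to dihydrotestosterone and its metabolites, which inactivates them, and UGT2B11 is a related enzyme. HSD17B4 is a peroxisomal enzyme of fatty acid beta-oxidation that can also oxidize 17β-hydroxysteroids. SRD5A3 is named as a 5α-reductase and acts in the synthesis of dolichol, the lipid carrier of protein glycosylation.

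UGT2B11, UGT2B15 and UGT2B17 were higher in LNCaP, whichever mimic the cells had received. AKR1C1, AKR1C2 and AKR1C3 were higher in 22Rv1 with either mimic. UGT2B17 averaged 316 ± 31.0 CPM (SD, n = 3) in LNCaP with NC-mimic and 0.937 ± 0.345 in 22Rv1 with NC-mimic. AKR1C3 averaged 1.53 ± 0.436 CPM in the former and 62.2 ± 3.90 in the latter. No member passed the test for the mimic in either line. CPM are expected counts scaled to a common library total after TMM, and compare a gene between libraries. Levels of different genes are compared in TPM, transcript abundances that are also divided by gene length.

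Several members are near copies of each other, and the reads of 1 copy can be credited to the other. On build GRCh38 (the hg38 build of the files, with GENCODE v44 gene models, all 10 protein-coding) AKR1C1 (chr10:4963253-4983283, plus strand), AKR1C2 (chr10:4987775-5018031, minus strand) and AKR1C3 (chr10:5035354-5107686, plus strand) are neighbors. The coding sequences of AKR1C1 and AKR1C2 are 98.04% identical, with 19 differences in 969 bases, and 18.85% of the 100-base windows of AKR1C1 occur unchanged in AKR1C2. AKR1C3 is 91.43% identical to AKR1C1. The 90 bases of exon 2 (coding bases 85 to 174) where AKR1C1 and AKR1C2 differ most are shown because they show how little separates the AKR1C copies. Capitals in AKR1C1 mark differences from AKR1C2, and capitals in AKR1C2 and AKR1C3 mark differences from AKR1C1. AKR1C1 is at chr10:4965914-4966003 on the plus strand, AKR1C2 at chr10:5001592-5001681 on the minus strand and AKR1C3 at chr10:5096410-5096499 on the plus strand.
AKR1C1: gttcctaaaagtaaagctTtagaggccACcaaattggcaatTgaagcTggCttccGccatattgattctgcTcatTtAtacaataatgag
AKR1C2: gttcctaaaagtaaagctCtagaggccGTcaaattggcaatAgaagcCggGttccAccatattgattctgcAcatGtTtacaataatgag
AKR1C3: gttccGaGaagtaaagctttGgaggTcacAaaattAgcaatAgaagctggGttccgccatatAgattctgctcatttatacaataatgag

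The glucuronosyltransferases lie together on chromosome 4, all on the minus strand: UGT2B17 (chr4:68537173-68576413), UGT2B15 (chr4:68646597-68670652) and UGT2B11 (chr4:69199951-69214748). The coding sequences of UGT2B15 and UGT2B17 are 96.54% identical, with 55 differences in 1590 bases, and 16.9% of the 100-base windows of UGT2B15 occur in UGT2B17. UGT2B11 is 84.63% identical to UGT2B15, but 97.04% to UGT2B28 and 95.01% to UGT2B10, which are not members. The 90 bases where UGT2B15 and UGT2B17 differ most are shown, with capitals in UGT2B15 for differences from UGT2B17 and in the others for differences from UGT2B15, since this pair gave the widest gap between a gene and its copy. They are at chr4:68670172-68670261 (exon 1 of UGT2B15), chr4:68568038-68568127 (exon 2 of UGT2B17) and chr4:69214279-69214368 (exon 1 of UGT2B11), all read from the minus strand.
UGT2B15: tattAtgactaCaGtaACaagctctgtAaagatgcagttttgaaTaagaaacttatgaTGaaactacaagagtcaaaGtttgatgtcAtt
UGT2B17: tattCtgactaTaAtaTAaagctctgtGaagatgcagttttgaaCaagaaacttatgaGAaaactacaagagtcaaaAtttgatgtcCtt
UGT2B11: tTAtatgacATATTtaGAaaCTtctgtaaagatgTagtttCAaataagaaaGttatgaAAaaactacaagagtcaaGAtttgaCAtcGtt

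The division of reads can be seen in the values. Of 120 member values (10 genes in 12 libraries), 39 lay more than 0.1 from a whole number. AKR1C1 had such a value in 10 of 12 libraries, AKR1C2 in 9, and UGT2B15 and UGT2B17 in 7 each. SRD5A1, HSD3B1 and HSD17B4 had 0. SRD5A3 had 4, and SRD5A3-AS1 lies across its 3′ part on the opposite strand. Whether the counting used the strand is not given in the sources used here, so reads of SRD5A3 and its antisense gene may not be told apart. The other single-locus members are SRD5A1 (chr5:6633427-6674386), SRD5A3 (chr4:55346213-55373100), HSD3B1 (chr1:119507198-119515054) and HSD17B4 (chr5:119452465-119637199), all on the plus strand.

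The libraries held between 12161091 and 22179601 expected counts. In 22Rv1, replicate 3 of each arm stood apart from replicates 1 and 2: the chi-square per gene was between 41.3 and 118 for pairs with replicate 3, 8.81 and 7.55 for the other pairs, and between 3.56 and 16.5 in LNCaP. Replicate 3 of 22Rv1 with piR-4447944 mimic had 2.23% of its counts on mitochondrially encoded genes, against 4.24% to 5.38% in the other 11 libraries. All 9 prostate luminal markers on the list reached at least 1 CPM in every library, and their summed level was between 6178 and 6682 CPM in LNCaP and between 3189 and 3879 CPM in 22Rv1. KLK3, which encodes prostate-specific antigen, was at 1815 ± 190 CPM in LNCaP and 46.3 ± 5.44 in 22Rv1 with NC-mimic (log2 fold change -5.30 ± 0.14, adjusted p = 2.3e-07 by edgeR). With the mimic in 22Rv1, KLK3 (-0.76 ± 0.28, unadjusted p = 0.0287) and KLK2 (-0.53 ± 0.21, unadjusted p = 0.0394) met the study's rule, an unadjusted p under 0.05 with a log2 fold change over 0.2 in either direction, as did 1.48% of all genes. The adjusted p was 0.999 for each. The study set this rule on shrunken DESeq2 fold changes, and here its thresholds were set on edgeR estimates unless another test is named. The 3 leukocyte markers summed to at most 4.33 CPM and the 2 endothelial markers to at most 6.32 CPM. The 5 fibroblast markers summed to between 61.2 and 84.9 CPM in LNCaP and between 15.6 and 54.3 CPM in 22Rv1, most of it COL1A1. Of the 3 liver markers, ALB alone passed 1 CPM in every library, with 1.62 to 3.64 CPM in LNCaP and 75.3 to 683 CPM in 22Rv1. The part of these differences in the results was not tested. In bulk RNA, fewer cells that express a gene and less RNA of it per cell cannot be told apart.

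HSD17B4 had the highest TPM of the members in all 4 groups, and the order below it differed between the lines. In LNCaP with NC-mimic, HSD17B4 had 398, 498 and 566 TPM in replicates 1 to 3, followed by UGT2B17 with 217, 259 and 211, UGT2B15 with 114, 136 and 161, SRD5A3 with 49.3, 50.7 and 49.0, SRD5A1 with 35.8, 35.5 and 30.5 and UGT2B11 with 10.8, 10.7 and 17.3. Each of these ranges lay clear of the next. AKR1C1 (mean 3.997 TPM), AKR1C2 (2.58) and AKR1C3 (2.25) came after, the last pair overlapping, and HSD3B1 was last at 0.45. LNCaP with piR-4447944 mimic had the same order, with overlapping neighbors from AKR1C1 down.

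In 22Rv1 with NC-mimic, HSD17B4 (375, 273 and 259 TPM) was followed by AKR1C3, with 84.4, 90.9 and 82.5. AKR1C2 came next with 38.5, 29.6 and 129, so that its replicate 3 lay above all AKR1C3 values and the others far below them. SRD5A3 (mean 37.7 TPM, within the range of AKR1C2), SRD5A1 (25.3), AKR1C1 (20.5) and UGT2B15 (18.1) followed. SRD5A3 and SRD5A1 did not overlap, while SRD5A1 overlapped AKR1C1, and AKR1C1 overlapped UGT2B15. UGT2B17 (0.65) and UGT2B11 (0.51) overlapped, and HSD3B1 was listed at 0. With piR-4447944 mimic the means of SRD5A3 (48.5) and AKR1C2 (46.9), of UGT2B15 (18.4) and AKR1C1 (11.9) and of UGT2B11 (0.58) and UGT2B17 (0.51) changed places, and in each case their ranges overlapped.

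**Figure D1:**
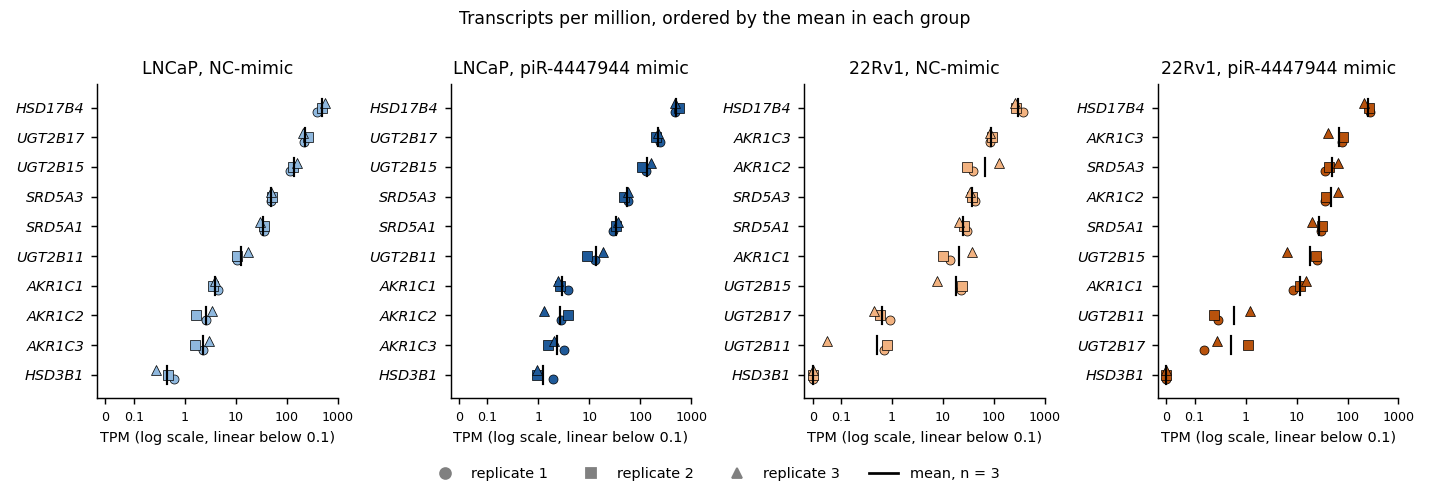
TPM of the 10 members in each library on a log axis (linear below 0.1), with a panel for each group and the genes in order of their mean (black bar, n = 3). UGT2B17 and UGT2B15 have ranks 2 and 3 in LNCaP, and AKR1C3 has rank 2 in 22Rv1, where UGT2B17 lies below 1.2 TPM.

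The comparison of the lines asks which of these enzymes each line expresses without androgen. Of the 9 members with enough counts to be tested, 3 were higher and 5 lower in 22Rv1 than in LNCaP among the NC-mimic libraries. This has to be read against the whole fit, in which 30.9% of 17497 genes were higher and 27.5% lower at an adjusted p under 0.05. Among the libraries with piR-4447944 mimic 3 of 9 members were higher and 4 lower, with 28.2% and 24.2% of 17283 genes. Calls are therefore common in this comparison. The median log2 fold change of all genes tested was 0.0146 and 0.0429. P-values are from the quasi-likelihood test of edgeR, adjusted by the method of Benjamini and Hochberg over all genes tested, unless another test is named. An exact permutation test of 3 against 3 libraries cannot give a p below 0.1, and gave 0.1 for each member whose libraries did not overlap.

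Among the androgen-making genes that were fitted, AKR1C3 had the largest difference. HSD3B1, which was not fitted, has a difference with a lower bound and no upper one. In LNCaP AKR1C3 had 1.55, 1.08 and 1.95 CPM with NC-mimic and 2.23, 1.11 and 0.985 with the piRNA mimic. In 22Rv1 it had 59.6, 66.7 and 60.3 CPM with NC-mimic and 55.4, 56.0 and 28.9 with the piRNA mimic. Every 22Rv1 library lay above every LNCaP library. The log2 fold change was 5.35 ± 0.21 (SE, adjusted p = 7.59e-07) with NC-mimic and 5.03 ± 0.42 (adjusted p = 0.000146) with the mimic.

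AKR1C2, which inactivates dihydrotestosterone, was at 1.71, 1.28 and 2.25 CPM in LNCaP with NC-mimic and 1.69, 2.52 and 1.39 with the piRNA mimic. The values in 22Rv1 were 29.1, 25.5 and 102 CPM with NC-mimic and 23.0, 26.3 and 55.1 with the piRNA mimic. Again the lines did not overlap, and replicate 3 was the highest in both arms of 22Rv1. This gave a log2 fold change of 4.89 ± 0.62 (adjusted p = 0.000287) and 4.23 ± 0.44 (adjusted p = 0.000364).

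AKR1C1 had the smallest difference of the AKR1C genes, with 2.54, 2.72 and 2.49 CPM in LNCaP with NC-mimic and 11.9, 8.85 and 33.9 in 22Rv1 with NC-mimic. With piR-4447944 mimic it had 2.30, 1.72 and 1.33 CPM in LNCaP and 6.32, 10.7 and 18.8 in 22Rv1. The lines did not overlap in either arm. Between the lines the log2 fold change was 2.80 ± 0.51 (adjusted p = 0.00179) and 2.75 ± 0.47 (adjusted p = 0.00268). Summed over the 3 genes, which removes the division of reads between them, AKR1C was at 5.07 to 6.69 CPM in LNCaP and 101 to 196 CPM in 22Rv1 with NC-mimic. The log2 fold change of the sum was 4.49 ± 0.31 (adjusted p = 1.15e-05) and 4.21 ± 0.21 (adjusted p = 2.17e-05). The make-up of the sum differed too: AKR1C2 took between 32.7% and 59.1% of the counts of AKR1C1 and AKR1C2 in LNCaP, and between 70.9% and 78.5% in 22Rv1.

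The promoters of AKR1C1 and AKR1C2 are shown as well, because these genes share most of this sequence and were both high in replicate 3 of 22Rv1. They are RefSeq windows on GRCh38.p14, 250 bases before to 50 bases after a RefSeq start site, and 98.6% of the aligned bases are identical. The window of AKR1C2 lies inside the longer GENCODE span given above for this gene. Capitals mark the 12 bases in each that differ or have no partner in the other. AKR1C1 is at chr10:4963165-4963464 (plus strand) and AKR1C2 at chr10:5003808-5004107 (minus strand). The 2 RefSeq starts of AKR1C3 gave windows that were 77.3% and 79.5% identical to that of AKR1C1.
AKR1C1: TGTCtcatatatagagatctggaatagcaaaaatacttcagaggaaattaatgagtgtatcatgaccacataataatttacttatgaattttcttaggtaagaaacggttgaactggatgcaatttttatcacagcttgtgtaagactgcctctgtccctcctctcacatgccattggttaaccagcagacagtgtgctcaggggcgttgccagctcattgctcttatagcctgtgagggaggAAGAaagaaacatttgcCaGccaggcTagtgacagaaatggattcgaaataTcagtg
AKR1C2: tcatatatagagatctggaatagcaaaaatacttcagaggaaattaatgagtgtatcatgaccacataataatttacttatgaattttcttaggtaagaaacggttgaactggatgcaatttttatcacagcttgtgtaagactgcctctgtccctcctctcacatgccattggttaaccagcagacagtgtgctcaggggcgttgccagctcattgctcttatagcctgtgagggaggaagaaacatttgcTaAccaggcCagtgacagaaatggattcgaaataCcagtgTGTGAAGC

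SRD5A1 differed little between the lines. It had 68.1, 68.6 and 60.5 CPM in LNCaP with NC-mimic and 54.0, 49.97 and 41.6 in 22Rv1 with NC-mimic, without overlap. On the log2 scale the fold change was -0.45 ± 0.12 (adjusted p = 0.0147), and the call was lost without LNCaP NC-mimic replicate 1 (-0.43, adjusted p = 0.0603) and, with an adjusted p just above 0.05, with limma on log2(TPM + 1). With piR-4447944 mimic it had 65.8, 60.0 and 62.9 CPM in LNCaP and 54.9, 54.4 and 34.5 in 22Rv1, a log2 fold change of -0.39 ± 0.19 that did not pass (adjusted p = 0.122). It passed without 22Rv1 piR-4447944 replicate 3, at -0.20 (adjusted p = 0.0424).

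SRD5A3 had 64.2, 67.0 and 62.0 CPM in LNCaP and 64.2, 64.4 and 62.2 CPM in 22Rv1 with NC-mimic, so the lines overlapped. The log2 fold change was -0.03 ± 0.09, with a 95% interval from -0.23 to 0.18 (adjusted p = 0.807). The TPM did not overlap, with 49.0 to 50.7 in LNCaP and 33.6 to 42.7 in 22Rv1 with NC-mimic, and limma on log2(TPM + 1) gave -0.40 (adjusted p = 0.0249), on a scale whose median over all genes was -0.11. The effective length by which the authors' software divided SRD5A3 reads lay between 1606 and 1760 bases in these LNCaP libraries and between 1921 and 2278 bases in 22Rv1. With piR-4447944 mimic SRD5A3 had 64.8, 67.8 and 69.4 CPM in LNCaP and 61.6, 67.8 and 111 in 22Rv1 (0.26 ± 0.23, adjusted p = 0.363). Without the last of these libraries the estimate was -0.05.

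HSD17B4 was lower in 22Rv1, with 296, 325 and 291 CPM in LNCaP and 200, 194 and 231 CPM in 22Rv1 with NC-mimic. With piR-4447944 mimic the values were 297, 294 and 302 CPM in LNCaP and 192, 199 and 138 in 22Rv1. No libraries of the lines overlapped. This gave a log2 fold change of -0.56 ± 0.10 (adjusted p = 0.00182) and -0.75 ± 0.15 (adjusted p = 0.00509).

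HSD3B1 had too few counts to pass the filter of the fit. It was called lower in 22Rv1 by the alternatives that tested it, edgeR with no low-count filter and DESeq2's Wald test, whose p-value shrinkage does not change. The adjusted p was from 0.0139 to 0.0234 with NC-mimic and from 0.0394 to 0.0447 with the piRNA mimic. LNCaP had 11, 8 and 4 expected counts with NC-mimic and 4, 4 and 9 with the piRNA mimic, and all 6 libraries of 22Rv1 had 0. Set against a limit of 3 counts over the 22Rv1 group, HSD3B1 was at least 6.90-fold higher in LNCaP with NC-mimic and at least 5.63-fold higher with the piRNA mimic. These bounds cover counting error only.

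Of the androgen-clearing genes, UGT2B17 had the widest gap of all members. LNCaP had 296, 352 and 300 CPM with NC-mimic and 337, 282 and 305 with the piRNA mimic. 22Rv1 had 1.32, 0.839 and 0.651 CPM with NC-mimic and 0.206, 1.504 and 0.388 with the piRNA mimic. Between the lines the log2 fold change was -8.32 ± 0.21 (adjusted p = 1.92e-07) and -8.69 ± 0.51 (adjusted p = 3.96e-05). The 22Rv1 values rest on 3 to 29 expected counts a library, and reads of UGT2B15 credited to UGT2B17 cannot be told apart from its own at that level.

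UGT2B15 had 161, 190 and 235 CPM in LNCaP with NC-mimic and 181, 152 and 235 with the piRNA mimic. In 22Rv1 it was at 33.3, 35.7 and 11.7 CPM with NC-mimic and 36.2, 33.9 and 9.31 with the piRNA mimic. Replicate 3 was the highest in each arm of LNCaP and the lowest in each arm of 22Rv1, and the lines did not overlap. For NC-mimic and piR-4447944 mimic in turn the log2 fold change was -2.86 ± 0.37 (adjusted p = 0.000318) and -2.83 ± 0.49 (adjusted p = 0.00285). UGT2B17 thus took between 56.0% and 65.0% of the summed counts of UGT2B15 and UGT2B17 in LNCaP, and between 0.566% and 5.26% in 22Rv1. The sum of both was at 457 to 542 CPM in LNCaP and 12.4 to 36.5 CPM in 22Rv1 with NC-mimic, a log2 fold change of -4.20 ± 0.37 (adjusted p = 4.25e-05) and, for the libraries with the mimic, -4.19 ± 0.49 (adjusted p = 0.000594).

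UGT2B11 was at 14.4, 14.0 and 22.2 CPM in LNCaP with NC-mimic and 17.8, 12.4 and 23.0 with the piRNA mimic. In 22Rv1 no library exceeded 1.001 CPM, with 22, 8 and 1 expected counts in the NC-mimic and 6, 6 and 11 in the piR-4447944 mimic libraries. The log2 fold change was -4.84 ± 0.55 (adjusted p = 0.00016) and -5.17 ± 0.40 (adjusted p = 0.000108). Summed with its copies UGT2B10 and UGT2B28, the difference was smaller, -2.82 ± 0.51 (adjusted p = 0.00183) and -2.94 ± 0.25 (adjusted p = 0.000153). UGT2B10 accounted for most of what was left in 22Rv1, with 142 of the counts with NC-mimic, against 31 of UGT2B11 and 0 of UGT2B28.

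**Figure D2:**
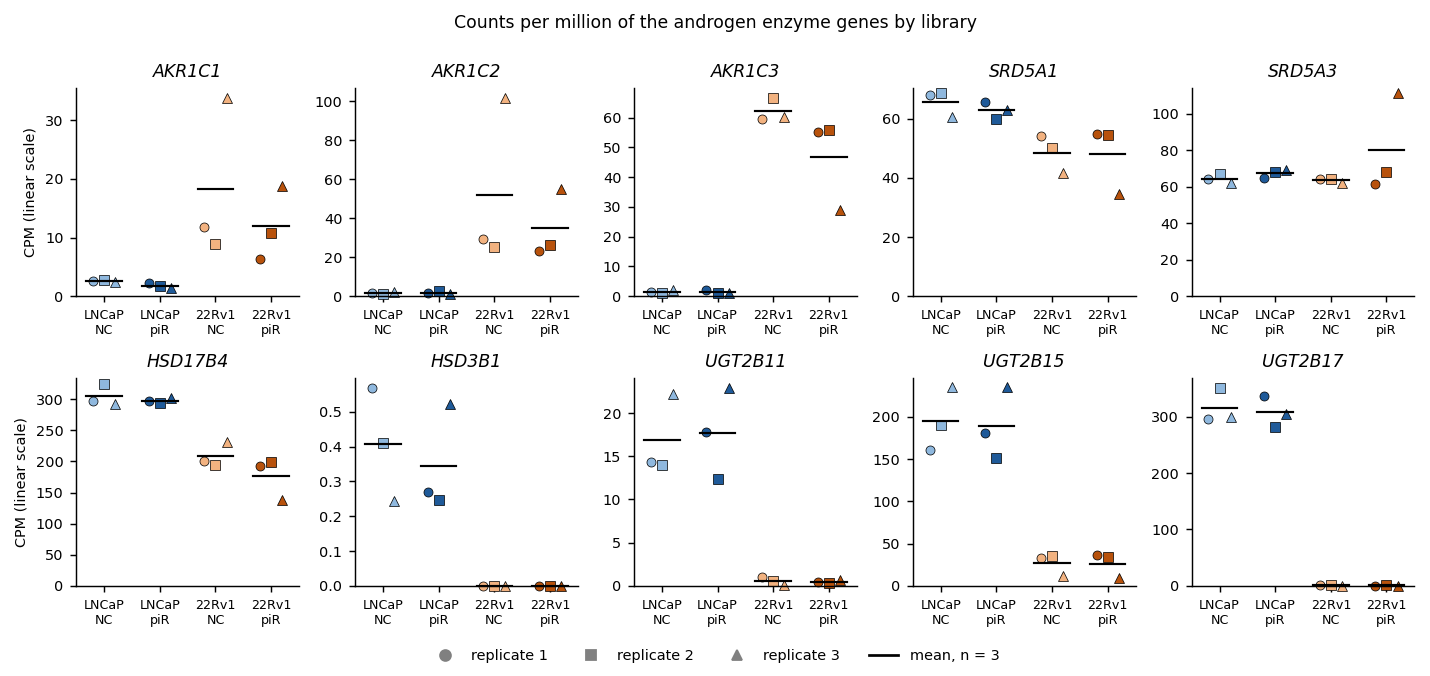
CPM of each member by library on linear axes that start at 0, with 4 groups on each horizontal axis (NC, NC-mimic; piR, piR-4447944 mimic), a marker shape for each replicate number and a bar for the mean of 3. The AKR1C genes are near 0 in LNCaP and the UGT2B genes are low or near 0 in 22Rv1. Triangles (replicate 3) lie apart in both arms of 22Rv1 for AKR1C1, AKR1C2 and UGT2B15, and with the others for AKR1C3 and SRD5A3 with NC-mimic.

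**Figure D3:**
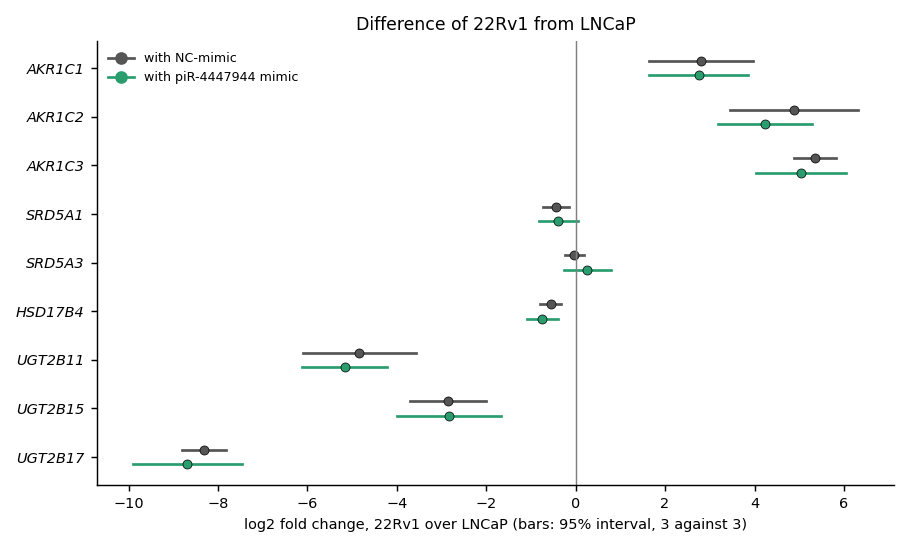
Log2 fold change of 22Rv1 over LNCaP for the 9 members that were tested, with 95% intervals, for NC-mimic and for piR-4447944 mimic libraries (3 against 3 each). The estimates of both arms lie close together, from -8.32 and -8.69 for UGT2B17 to 5.35 and 5.03 for AKR1C3.

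The mimic was compared with NC-mimic within each line, to ask whether it moves these enzymes. At an adjusted p under 0.05 the fit called 0 of 9 members in LNCaP and 0 of 8 in 22Rv1, where UGT2B11 had too few counts. It called no other gene either, of 16244 and 16898 tested, among which 433 and 250 had an unadjusted p under 0.05. DESeq2's Wald test called 2 genes in LNCaP and 4 in 22Rv1, none of them a member. The study's rule was met by 0 members in LNCaP (2.22% of all genes tested) and 0 members in 22Rv1 (1.48%). At those shares fewer than 1 of 9 genes would meet it, so the count of 0 is near the background. With shrunken DESeq2 fold changes, the form the study used, 2 genes met it in LNCaP and 233 in 22Rv1, with 0 members in each. No member had an unadjusted p under 0.05 in either line.

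In LNCaP the intervals were narrow for the abundant members. The log2 fold change with the mimic was -0.03 for HSD17B4 (95% interval -0.17 to 0.10), -0.07 for SRD5A1 (-0.24 to 0.11), 0.06 for SRD5A3 (-0.10 to 0.22), -0.04 for UGT2B17 (-0.22 to 0.14) and -0.05 for UGT2B15 (-0.37 to 0.28). UGT2B11 was at 0.08 (-0.38 to 0.54). For these genes the libraries of both arms overlapped in CPM.

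AKR1C1 was the 1 member of 10 whose arms did not overlap in CPM. Its 3 libraries with piR-4447944 mimic (2.30, 1.72 and 1.33 CPM) lay below its 3 with NC-mimic (2.49 to 2.72 CPM). With 3 against 3 libraries an unchanged gene separates, in either direction, with a probability of 0.1, so 1 of 10 is near the background. The share of all genes that separated was not counted. With the mimic AKR1C1 had a log2 fold change of -0.54 ± 0.30 (unadjusted p = 0.0983, adjusted p = 0.999), and the exact two-sided permutation test gave p = 0.1, the smallest it can give. In TPM the arms overlapped, with 2.39 to 3.89 against 3.61 to 4.54. Without LNCaP piR-4447944 replicate 1 it met the study's rule (-0.76, unadjusted p = 0.0451, adjusted p = 0.9998). Its copy AKR1C2 was at 0.10 (-0.68 to 0.88), AKR1C3 at -0.09 (-0.98 to 0.80) and the sum of the 3 genes at -0.21 (-0.69 to 0.28). The sum of UGT2B11, UGT2B10 and UGT2B28 was at 0.15 (-0.27 to 0.57), and met the study's rule without LNCaP NC-mimic replicate 3 (0.39, unadjusted p = 0.0326, adjusted p = 0.63). The AKR1C genes had between 68 and 142 counts in a group of 3 libraries, and the intervals are accordingly wide.

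For HSD3B1 the counts and the TPM lay in opposite directions. Its counts were 23 with NC-mimic and 17 with the piRNA mimic, a ratio of 0.845 (exact 95% interval 0.424 to 1.65, counting error only). Its TPM were 0.61, 0.47 and 0.27 with NC-mimic and 1.91, 0.93 and 0.92 with the piRNA mimic, without overlap. The effective length set for HSD3B1 was 1156 to 1228 bases in the former libraries and 186 to 737 bases in the latter.

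In 22Rv1 no member's interval excluded 0. These fits do not use the replicate number, and estimates from fits with a block for it are given below for the AKR1C genes and UGT2B15. The mimic gave a log2 fold change of -0.61 for AKR1C1 (95% interval -1.98 to 0.74), -0.59 for AKR1C2 (-1.96 to 0.78) and -0.41 for AKR1C3 (-1.02 to 0.19). All 3 libraries of AKR1C3 with piR-4447944 mimic (28.9 to 56.0 CPM) lay below those with NC-mimic (59.6 to 66.7 CPM), an exact two-sided permutation p of 0.1. AKR1C3 was the 1 member of 10 without overlap in CPM, near the probability of 0.1 for an unchanged gene. With replicates 1 and 2 only, AKR1C3 was at -0.17 (-0.41 to 0.06), AKR1C1 at -0.27 and AKR1C2 at -0.14. Leaving out 1 library at a time turned the sign of AKR1C1 and AKR1C2: without 22Rv1 NC-mimic replicate 3 they were at 0.20 and 0.34, and without 22Rv1 piR-4447944 replicate 3 at -1.08 and -1.07. The sum of the AKR1C genes was at -0.51 (-1.15 to 0.13) with all libraries and at -0.17 (-0.38 to 0.03) with replicates 1 and 2. With the replicate block AKR1C1 was at -0.51 (-1.185 to 0.17), AKR1C2 at -0.41 (-0.89 to 0.08) and AKR1C3 at -0.47 (-0.98 to 0.04). The blocked estimate of the sum was -0.44 (-0.88 to 0.007).

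The other members of 22Rv1 gave 0.33 for SRD5A3 (-0.19 to 0.85), -0.24 for HSD17B4 (-0.66 to 0.17), -0.02 for SRD5A1 (-0.53 to 0.49), -0.02 for UGT2B15 (-1.37 to 1.32) and -0.42 for UGT2B17 (-2.32 to 1.48). With replicates 1 and 2 only, SRD5A3 was at 0.02 (-0.21 to 0.24), HSD17B4 at -0.01 (-0.17 to 0.16), SRD5A1 at 0.08 (-0.16 to 0.31) and UGT2B15 at 0.03 (-0.25 to 0.31). The replicate block put UGT2B15 at -0.09 (-0.49 to 0.31). UGT2B11 had 31 counts with NC-mimic and 23 with the piRNA mimic in all, a ratio of 0.769 (exact 95% interval 0.428 to 1.36). HSD3B1 had 0 counts in both arms, so no ratio can be given.

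The difference of the mimic's effect between the lines was tested by an interaction term over all 12 libraries, and 0 of 9 members had an unadjusted p under 0.05, against 3.26% of 18720 genes. The adjusted p was 1 for each. The estimates lay between -0.68 ± 0.80 for AKR1C2 and 0.27 ± 0.25 for SRD5A3, so a difference of the mimic effect was not detectable and not shown to be absent. Without 22Rv1 piR-4447944 replicate 2, UGT2B17 reached an unadjusted p of 0.00258 at -1.65, on the few counts it has in 22Rv1.

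**Figure D4:**
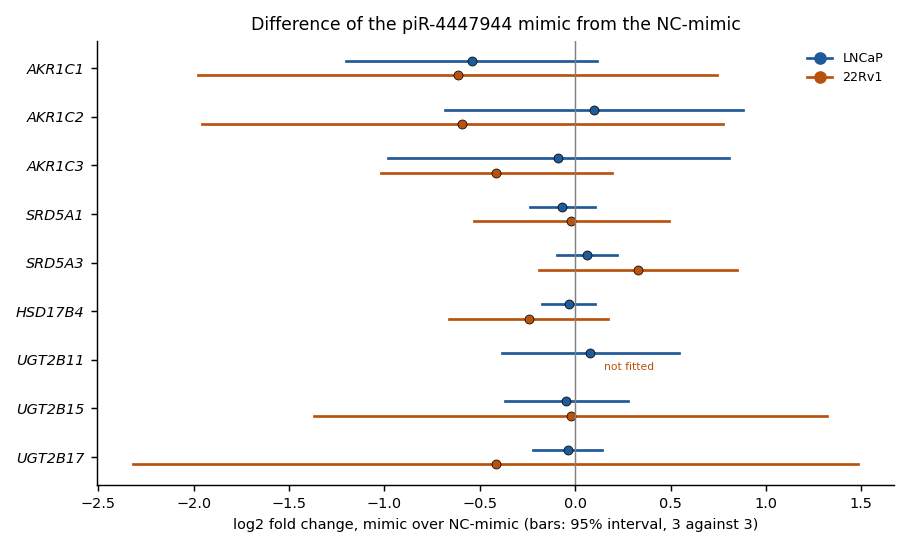
Log2 fold change of piR-4447944 mimic over NC-mimic for the 9 members tested, with 95% intervals, in LNCaP and in 22Rv1 (3 against 3 each; UGT2B11 was not fitted in 22Rv1). Every interval includes 0, and those of HSD17B4, SRD5A1 and SRD5A3 are narrower in LNCaP than in 22Rv1.

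Replicate 3 of 22Rv1 is described separately, since it lay apart for several members. With NC-mimic it held 3.27 times the mean AKR1C1 CPM of replicates 1 and 2, and 3.73 times that of AKR1C2, but 0.955 times that of AKR1C3. With piR-4447944 mimic the ratios were 2.20, 2.23 and 0.519. UGT2B15 was at 0.340 and 0.266 times the mean of replicates 1 and 2. Thus the near copies AKR1C1 and AKR1C2 were high and UGT2B15 low in replicate 3 of either arm, and AKR1C3 did not follow its neighbors.

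Other members stood apart in the mimic arm. SRD5A3 was at 1.72 times in replicate 3 with piR-4447944 mimic, the library with few mitochondrial counts, and at 0.968 times with NC-mimic. HSD17B4 was at 0.705 and 1.17 times, and SRD5A1 at 0.631 and 0.800 times. In LNCaP the ratios of these 3 genes lay between 0.886 and 1.05, and that of UGT2B15 was 1.34 with NC-mimic and 1.41 with the piRNA mimic, the opposite direction to 22Rv1. These are descriptions of single libraries, and the labels name no batch that replicate 3 would share. Over all genes tested, its deviations from the group means correlated weakly between the lines (r from 0.098 to 0.116).

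**Figure D5:**
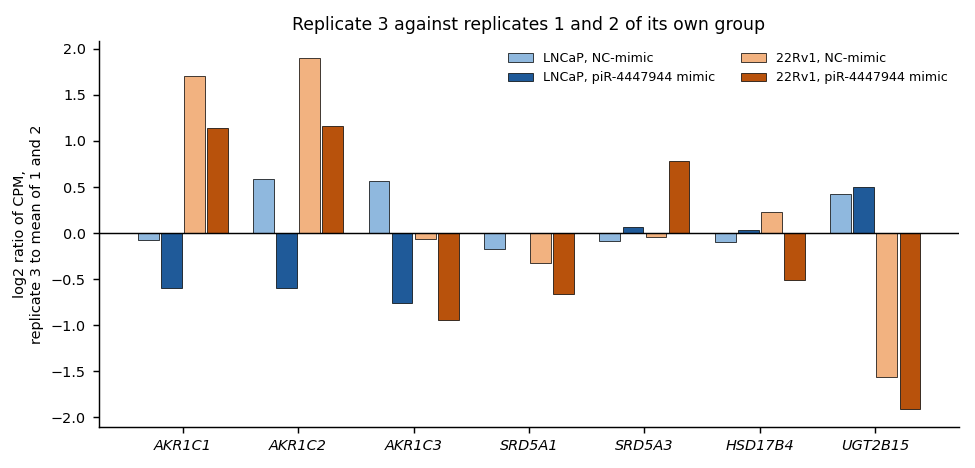
Log2 ratio of the CPM in replicate 3 to the mean of replicates 1 and 2 of its own group, for the 7 members with enough counts in every group to plot, with a bar for each of the 4 groups. In 22Rv1 the bars of AKR1C1 and AKR1C2 point up and those of UGT2B15 down in both arms.

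The other genes of the pathway were taken from 5 lists. These were drawn up with earlier results of these data known, so their shares beside those of all genes are descriptions. Precursor steps lead from cholesterol to the substrates of HSD3B1. Of 8 genes, 6 were tested in the NC-mimic libraries, 0 were higher and 4 lower in 22Rv1, against 30.9% and 27.5% of all genes, with a median log2 fold change of -0.76 (all genes, 0.0146). With piR-4447944 mimic 0 of 5 were higher and 3 lower (28.2% and 24.2% of all genes). CYB5A, the cytochrome b5 that aids CYP17A1, went from 156 ± 2.41 CPM in LNCaP to 38.3 ± 1.02 in 22Rv1 (log2 fold change -2.03 ± 0.09, adjusted p = 1.07e-06). CYP17A1 itself had too few counts to be tested in any comparison. CYP11A1, which cleaves the cholesterol side chain, had 132 counts in LNCaP and 0 in 22Rv1, at least 39.6-fold higher in LNCaP against the limit of 3 counts over the group.

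Among 11 other androgen-making genes, 8 were tested, 3 were higher and 0 lower in 22Rv1 with NC-mimic (median 0.41), and the share higher is near the 30.9% of all genes. With piR-4447944 mimic 2 were higher and 1 lower (median -0.05), the last being HSD17B1 (-1.14 ± 0.33, adjusted p = 0.0254), which was named after its values were seen. RDH5, a retinol dehydrogenase that also oxidizes 3α-hydroxysteroids, went from 0.929 ± 0.559 to 15.1 ± 6.26 CPM (4.02 ± 0.55, adjusted p = 0.000426). HSD17B6, which converts androstanediol back to active androgen, was higher by 1.17 ± 0.39 (adjusted p = 0.032) with NC-mimic, and at 0.04 ± 0.45 (adjusted p = 0.946) with piR-4447944 mimic. The interaction term for HSD17B6 was -1.15 ± 0.60 (unadjusted p = 0.0807, adjusted p = 1), so these were not shown to differ.

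Among 17 other clearing genes, 9 were tested with NC-mimic, 4 were higher and 2 lower in 22Rv1 (median -0.25), with 30.9% and 27.5% for all genes. HSD17B11, a lipid droplet 17β-hydroxysteroid dehydrogenase, went from 10.4 ± 1.46 to 71.1 ± 0.691 CPM (2.76 ± 0.13, adjusted p = 2.24e-06). AKR1C4, the hepatic member of the AKR1C family, had 2 counts in LNCaP and 50 in 22Rv1 with NC-mimic, a ratio of 27.8 (exact 95% interval 7.30 to 236). With piR-4447944 mimic it had 1 and 15 counts, a ratio of 15.1 (2.32 to 636). Reads of the AKR1C members credited to AKR1C4 could add to counts this low, which was not tested. UGT2B28 had 72 counts in LNCaP with NC-mimic and 0 in 22Rv1, at least 21.6-fold higher in LNCaP, and CYP3A5 was lower in 22Rv1 by -1.06 ± 0.34 (adjusted p = 0.0281). UGT2B4, not fitted between the lines and named after its values were seen, went the other way. It had 5 counts in LNCaP and 236 in 22Rv1 with NC-mimic, and 4 and 157 with the piRNA mimic. Its replicate 3 in 22Rv1 was at only 0.163 and 0.453 CPM. UGT2B7, also not fitted, had 21 and 7 counts with NC-mimic. With piR-4447944 mimic, 2 of 8 tested genes of this list were higher and 4 lower.

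Of the peroxisomal partners of HSD17B4, all 6 genes tested were lower in 22Rv1 with NC-mimic, against 27.5% of all genes, and 5 of 6 with piR-4447944 mimic, against 24.2%. The medians were -1.10 and -1.23. AMACR, the racemase of branched fatty acids, went from 174 ± 8.21 to 20.6 ± 5.16 CPM (-3.08 ± 0.18, adjusted p = 5.27e-06), and EHHADH, the other bifunctional enzyme of the peroxisome, by -1.95 ± 0.27 (adjusted p = 0.000457). Of the 4 dolichol genes listed with SRD5A3, DHDDS was higher in 22Rv1 (0.96 ± 0.13, adjusted p = 0.000434) and DOLK lower (-0.51 ± 0.16, adjusted p = 0.0261), with a median of 0.28.

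For the mimic, no gene of the 5 lists passed the adjusted test in either line, and the study's rule was met by 1 of 8 clearing genes tested in LNCaP and 1 of 9 in 22Rv1, beside 2.22% and 1.48% of all genes, and by no gene of the other 4 lists. HSD17B14, a short-chain dehydrogenase, had values that went from 5.73 ± 0.975 to 4.07 ± 0.310 CPM in LNCaP (-0.49 ± 0.21, unadjusted p = 0.0345, adjusted p = 0.999). Its interaction term was 0.34 ± 0.40 (unadjusted p = 0.409), so the lines were not shown to differ. HSD17B8, a mitochondrial member of the same family, had 32.1, 31.4 and 31.8 CPM with NC-mimic and 23.1, 26.2 and 20.9 with the piRNA mimic in 22Rv1 (-0.44 ± 0.16, unadjusted p = 0.0253, adjusted p = 0.999). Its libraries did not overlap, and the share of all genes without overlap was not counted. In LNCaP HSD17B8 was at 0.24 ± 0.13 (unadjusted p = 0.0879). The interaction term of HSD17B8 was -0.68 ± 0.20 (unadjusted p = 0.00626, adjusted p = 1).

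Motifs were searched on both strands of the RefSeq promoter windows of 9 members, all but UGT2B17. TGACNNNGC, the core bound by antioxidant response factors, occurred in those of SRD5A3 and UGT2B11 and in 13.35% of 35116 promoters. GTTAAT, a core bound by HNF1 factors, occurred in 0 members and in 6.88% of promoters. A match is a description of these letters, and no binding was measured.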

How the data were processed

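mRNA libraries of LNCaP and 22Rv1 cells with NC-mimic or piR-4447944 mimic (3 per group) were used. The submitters' processing notes name STAR 2.7.1a, RSEM 1.3.0 and hg38. Strand, read length and trimming are not given in the sources used here. Expected counts, as deposited, are the RSEM estimates of reads for each gene, with reads that match several genes divided between them. TPM, as the authors deposited them, are scaled for effective length and hold no depth. Depth lay between 12161091 and 22179601 expected counts.

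The members and gene lists were chosen with earlier results of these data known. All members are named. Of each list, counts are given, with values for genes past a call for the mimic and for the 2 largest changes per direction between lines with NC-mimic. Rounded expected counts were tested with edgeR 4.0.16 in R 4.3.3 (TMM, filterByExpr, quasi-likelihood test), each comparison on its own libraries and the interaction on all 12, with Benjamini-Hochberg adjustment over all genes. Exact two-sided permutation tests were run on CPM and TPM of single genes. Intervals on counts cover counting error only. The tests were first run on simulated data.

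As alternatives, the size factors of DESeq2, all genes without filter, a block for the replicate number, a common fit of all 12 libraries, the Wald test of DESeq2 1.42.0 with and without shrinkage, limma 3.58.1 on log2(TPM + 1) where 3 or more libraries reached 1 TPM, each library left out, 22Rv1 replicates 1 and 2 only and summed families were tried. Shrinkage changed the fold change of DESeq2 and not its p-value. Whether replicate numbers pair libraries was checked by the correlation of deviations from group means. Equal numbers gave 0.198, 0.167 and 0.355 in 22Rv1, a sign of pairing that rests on the values alone. For replicates 1 and 2 with unequal numbers it was 0.191 and 0.117, so mainly replicate 3 was tied by its number. In LNCaP it was 0.021, 0.005 and 0.189 for equal numbers. Between the lines it was 0.098 to 0.116 for replicate 3 with replicate 3, and -0.021 to 0.083 for equal numbers 1 or 2. The main fits have no block for the replicate number in either line, so they ignore any such pairing. The block was run as an alternative. The closest gene to HSD17B4 and a further promoter motif are not reported here.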

Additional observations from a re-analysis of the deposited data

How the results depend on the processing

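Of the calls on single members between the lines, those of AKR1C1, AKR1C2, AKR1C3, UGT2B11, UGT2B15, UGT2B17 and HSD17B4 kept direction and threshold under every alternative in which they were tested, and those of SRD5A1 and SRD5A3 changed as given in the report. Direction changed for members only where the estimate was not called, and the cause was not tested.

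In LNCaP, 0 genes passed the adjusted p for the mimic, 46 with no low-count filter, 2 with DESeq2's Wald test, 2 with shrinkage, 1 with limma on log2(TPM + 1) and 0 to 2 with each library left out. The study's rule was met by 361 genes, 891 with no low-count filter, 168 with all 12 libraries in 1 fit, 2 with shrinkage, 578 with limma and 284 to 1008 with each library left out, the highest without LNCaP NC-mimic replicate 3. Of the members, 0 to 1 met it with each library left out. In 22Rv1, 0 genes passed the adjusted p, 4 with DESeq2's Wald test, 4 with shrinkage, 2 with limma and 4 with replicates 1 and 2 only. The rule was met by 250 genes, 532 with no filter, 1232 with all 12 libraries in 1 fit, 438 with DESeq2's Wald test and 233 with shrinkage. It was met by 459 with limma, 781 with replicates 1 and 2 only and 183 to 376 with each library left out. With the replicate block it was 420 genes, and the block changed no call on a member. For AKR1C3 in 22Rv1 the blocked estimate was -0.47 (unadjusted p = 0.0647, adjusted p = 0.869). For the interaction, 0 genes passed the adjusted p, 3 with DESeq2, 2 with limma and 0 to 1 with each library left out. An unadjusted p under 0.05 was reached by 610 genes, 1035 with no filter, 1184 with 22Rv1 replicates 1 and 2 only and 407 to 1041 with each library left out, and by 0 to 1 members.

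With limma the log2 fold change changed sign for AKR1C2 (-0.015) and HSD17B4 (0.059) with the mimic in LNCaP, SRD5A1 with the mimic in 22Rv1 (0.089), SRD5A3 between lines with piR-4447944 mimic (-0.19) and, for the interaction, UGT2B11 (0.006), UGT2B15 with UGT2B17 (0.008) and UGT2B11 with its copies (0.18). With 22Rv1 replicates 1 and 2 only it did so for UGT2B15 (0.03), SRD5A1 (0.079), UGT2B15 with UGT2B17 (0.021) and UGT2B11 with its copies (-0.3), and in the interaction for AKR1C1 (0.26), SRD5A3 (-0.055), HSD17B4 (0.017), summed AKR1C (0.023) and UGT2B15 with UGT2B17 (0.053). The interaction of that last sum was 0.007 with DESeq2's size factors, 0.011 with no filter and 0.013 with DESeq2's Wald test, and that of UGT2B15 was -0.005 with the replicate block.

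With each library left out, the mimic effect in LNCaP lay between -0.15 and 0.33 for UGT2B11, -0.23 and 0.11 for UGT2B15, -0.11 and 0.046 for UGT2B17, -0.18 and 0.32 for AKR1C2, -0.54 and 0.13 for AKR1C3, -0.062 and 0.018 for HSD17B4, -0.12 and 0.049 for UGT2B15 with UGT2B17, and -0.056 and 0.39 for UGT2B11 with its copies. In 22Rv1 it lay between -0.38 and 0.38 for UGT2B15, -1.65 and 0.002 for UGT2B17, -1.08 and 0.2 for AKR1C1, -1.07 and 0.34 for AKR1C2, -0.14 and 0.17 for SRD5A1, -0.38 and 0.37 for UGT2B15 with UGT2B17, and -0.4 and 0.59 for UGT2B11 with its copies. SRD5A3 between lines with piR-4447944 mimic lay between -0.053 and 0.42. The interaction lay between -0.76 and 0.52 for UGT2B11, -0.33 and 0.41 for UGT2B15, -1.65 and 0.029 for UGT2B17, -0.54 and 0.74 for AKR1C1, -1.18 and 0.25 for AKR1C2, -0.54 and 0.12 for AKR1C3, -0.058 and 0.23 for SRD5A1, -0.039 and 0.43 for SRD5A3, -0.48 and 0.097 for summed AKR1C, -0.34 and 0.39 for UGT2B15 with UGT2B17, and -0.55 and 0.43 for UGT2B11 with its copies. Depth limits HSD3B1 in both lines and UGT2B11 and UGT2B17 in 22Rv1.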

Other observations

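For members tested over all 12 libraries, other than HSD17B4, the gene outside the members whose deviations from the 4 group means were most like a member's own was looked up among 18711 genes, by Pearson's r of log2 CPM over 12 libraries, as a description with no test. The closest genes were ERVMER34-1 for UGT2B15 (r = 0.984), CTRL for UGT2B17 (r = 0.976), ABLIM1 for UGT2B11 (r = 0.959), RAB9A for AKR1C1 (r = 0.975), PDE4B for AKR1C2 (r = 0.976), PAQR4 for AKR1C3 (r = 0.970), NUCKS1 for SRD5A1 (r = 0.995) and KDM3A for SRD5A3 (r = 0.990). AKR1C1 and AKR1C2 did not share a closest gene. The libraries share their line and replicate number, and each r is the highest of all genes searched.

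UGDH, which makes the glucuronic acid donor used by the UGT2B enzymes, had 146, 135 and 591 CPM in 22Rv1 with NC-mimic and 124, 130 and 223 with piR-4447944 mimic, so that replicate 3 was the highest in each arm, as for AKR1C1 and AKR1C2. In LNCaP it lay between 77.2 and 92.7 CPM. UGDH was singled out after its values were seen.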
